A study of Brachypodium distachyon with 9 samples.

Results

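MAP kinase cascade genes were followed in droughted shoots of Brachypodium distachyon 21-3, a wild relative of the temperate cereals. They were taken from the deposited annotation, as every feature whose gene name or synonym began with MPK, MAPK, MKK or MEKK, or whose description held the words mitogen-activated protein kinase. Of 28454 annotated features, 10 met this rule, and all 10 did so by name and by description. They comprised 6 MAP kinases (MPK3, MPK6, MPK11, MPK7-1, MPK14 and MPK17) and 4 MAP kinase kinases (LOC100823700, MKK3-1, MKK3-2 and MKK6.1). LOC100823700 carries the synonyms MKK1.1 and MKK1.2, and MKK6.1 the synonym MKK6.2. The annotation's descriptions number the genes differently from their names. MKK3-1 and MKK3-2 are described as mitogen-activated protein kinase kinase 6-like, and MKK6.1 as 1-like. MPK11 is described as mitogen-activated protein kinase 2-like and MPK14 as 3-like. Arabidopsis relatives are therefore given by name only. Only 210 features carried any gene name or informative description, so cascade genes listed by locus number alone are not analysed here. All 10 passed the expression filter, and each had counts in all 9 libraries.

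A MAP kinase cascade passes a signal by phosphorylation from a MAP kinase kinase kinase to a MAP kinase kinase (MKK) and on to a MAP kinase (MPK), which phosphorylates transcription factors, enzymes and other targets. In plants such cascades relay drought, cold, salt, wounding and pathogen signals, and they also act in stomatal development and cell division. Much of their control lies in phosphorylation of the kinases, which transcript counts do not measure. In Arabidopsis, MPK3 and MPK6 are the close pair most studied in stress and immune signalling. There MKK1 and MKK2 act ahead of MPK4, the nearest relative of MPK11. MKK3 acts ahead of the group that holds MPK7 and MPK14, and MKK6 acts in cytokinesis.

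Total RNA was sequenced after poly(A) selection from whole aboveground shoots at the 5-leaf stage. Plants grew for 18 days, then went 15 days without water, and were collected 3 h post dawn. The groups, with 3 biological replicates each, were wild type, gf14h-1 (a CRISPR/Cas9 line mutated in GF14h, a 14-3-3 protein gene) and hdac19-2b (a CRISPR/Cas9 line mutated in HISTONE DEACETYLASE 19). Both lines are homozygous, with an early stop codon in exon 1 of the targeted gene. Each gene was represented by 1 mutant allele, and all groups, controls included, were droughted, so no value here is a response to drought. In whole shoots, fewer cells of a type and less RNA per cell cannot be told apart. Libraries held 3302835 to 36632994 counts, and gf14h-1 replicate 3 was the shallowest. That library and gf14h-1 replicate 1 stood apart from the rest, and values without them are given where they move a result. Both targeted genes lack a paired locus in the sources used here, so their transcripts are not analysed here. Chloroplast genes chosen as markers of green tissue (11 features) were all detected, with summed levels of 2866 to 6829 CPM for wild type, 3293 to 6191 for gf14h-1 and 3160 to 5647 for hdac19-2b. Features listed for floral tissue (31) and for root (1) also had counts in every group, at summed levels of 444 to 608 CPM and 35.1 to 68.1 CPM. Tissue content was not tested, and these poly(A)-selected levels do not measure it. CPM are counts scaled to a common library total, and levels of single genes below are CPM after TMM scaling, a correction for library composition. CPM do not account for transcript length, so levels are compared between groups and not between genes.

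MPK3 (described in the annotation as mitogen-activated protein kinase 5-like; chromosome 1, 64962717 to 64964784, plus strand, on assembly Brachypodium_distachyon_v3.0, which all positions here refer to) was the member that differed most between genotypes. Wild type libraries stood at 169.9, 48.6 and 83.3 CPM in replicates 1, 2 and 3. The gf14h-1 libraries stood at 34.2, 44.7 and 66.0 CPM, and the hdac19-2b libraries at 37.7, 21.3 and 21.9 CPM. All hdac19-2b libraries lay below all wild type libraries, whereas gf14h-1 overlapped both other groups. Group means were 101 ± 62.5 CPM for wild type, 48.3 ± 16.2 for gf14h-1 and 26.9 ± 9.28 for hdac19-2b (SD, n = 3). The mean was thus 3.73-fold lower in hdac19-2b and 2.08-fold lower in gf14h-1 than in wild type. Neither difference passed the quasi-likelihood (QL) test of edgeR, with p-values adjusted by the Benjamini-Hochberg method over all tested features. For hdac19-2b the log2 fold change was −1.90 (SE 0.44, 95% interval −2.87 to −0.93), at an unadjusted p of 0.0012 and an adjusted p of 0.133 (edgeR QL). For gf14h-1 it was −1.07 (SE 0.43, interval −2.03 to −0.12), at an unadjusted p of 0.031 and an adjusted p of 0.584 (edgeR QL). Between the mutants, MPK3 was lower in hdac19-2b by a log2 fold change of −0.82 (interval −1.78 to 0.13; edgeR QL adjusted p 0.622). The order of means, wild type above gf14h-1 above hdac19-2b, therefore has no neighbouring step that passed the test.

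Wild type replicate 1 carried much of the MPK3 difference. Without it the log2 fold change became −1.31 for hdac19-2b (edgeR QL adjusted p 0.376) and −0.48 for gf14h-1 (edgeR QL adjusted p 1.00). Without gf14h-1 replicate 1 the gf14h-1 estimate was −0.88, and without gf14h-1 replicate 3 it was −1.35. Between the mutants it was −1.02 and −0.55 in the same 2 fits. The DESeq2 Wald test did call MPK3 lower in hdac19-2b, with an adjusted p of 0.00229. Over all alternatives the adjusted p in hdac19-2b ran from 0.00229 to 0.575 and every estimate was below 0, in the edgeR, limma and DESeq2 fits alike.

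**Figure D1:**
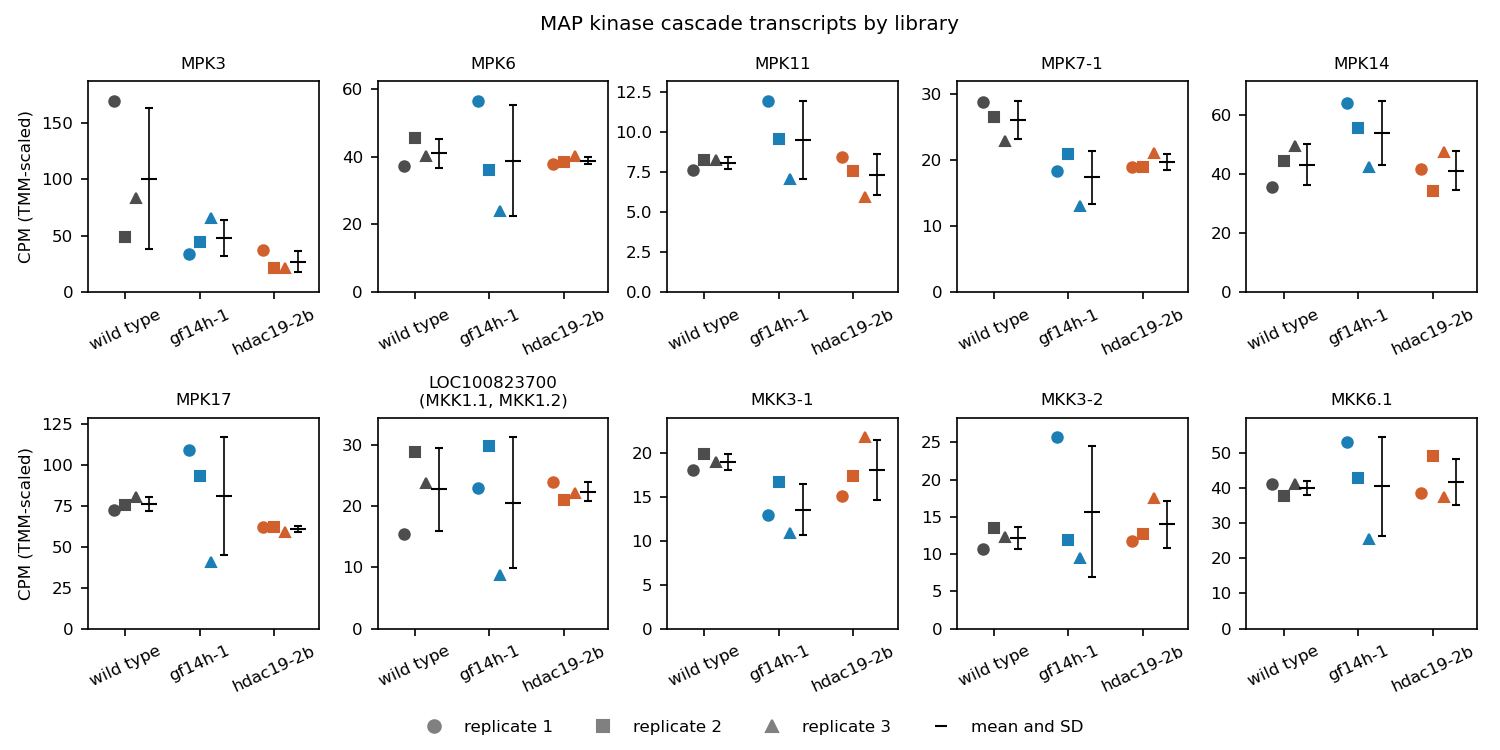
Levels of the 10 MAP kinase cascade transcripts in TMM-scaled CPM (vertical axes from 0) in each of 9 libraries, by genotype. Symbols are replicates and black bars the mean and SD of 3 libraries. MPK3 reaches 169.9 CPM in wild type replicate 1 and is below 38 CPM in all hdac19-2b libraries, while the other members vary less.

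MPK3 also took a changing share of the counts of the 6 MPK genes, a measure within each library that does not depend on scaling between libraries. In wild type the share was 48.3% of 4927 MPK counts in replicate 1 (Wilson 95% interval 46.9% to 49.7%), 19.5% of 3036 in replicate 2 and 29.2% of 10184 in replicate 3. In gf14h-1 it was 11.6%, 17.2% and 34.2%, the last from 547 MPK counts with an interval of 30.3% to 38.3%. In hdac19-2b it was 18.2%, 11.6% and 11.2%. All hdac19-2b shares lay below all wild type shares, the nearest being 18.2% (interval 16.9% to 19.4%) and 19.5% (interval 18.1% to 20.9%), whose intervals overlap. The intervals cover counting error only. The 3 wild type libraries differed from each other by more than this error.

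**Figure D2:**
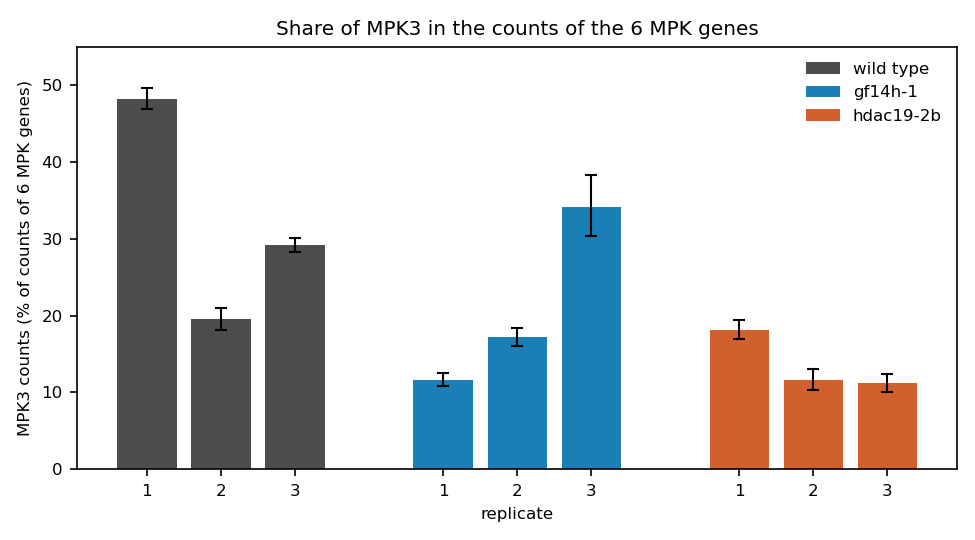
Counts of MPK3 as a percentage of the summed counts of the 6 MPK genes (vertical axis from 0) in each library, by genotype and replicate, with Wilson 95% intervals as error bars. Shares run from 19.5% to 48.3% in wild type, from 11.6% to 34.2% in gf14h-1 and from 11.2% to 18.2% in hdac19-2b.

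Over all libraries, and within wild type, MPK3 spread more than the other members. Its highest library was 7.98 times its lowest over all 9, against 1.87 to 3.38 times for the other 9 genes. Among wild type plants alone the ratio was 3.50 for MPK3 and 1.08 to 1.86 for the others. Within hdac19-2b its coefficient of variation was 34.5%, above the 2.91% to 22.3% of the others, but within gf14h-1 it was 33.5%, inside their range of 20.3% to 55.5%. The biological coefficient of variation estimated by edgeR, which is the replicate spread left after counting error, was 0.370 for MPK3, at percentile 57.4 of all tested features. For the other members it was 0.214 to 0.329, at percentiles 11.6 to 49.9. The percentile takes no account of abundance, and the value edgeR fitted for features as abundant as MPK3 was 0.254. Of the other members, LOC100823700 (0.329 against 0.295) and MPK17 (0.266 against 0.252) lay above the value fitted for their abundance, and the rest lay below it.

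MPK6 (chromosome 1, 48004496 to 48010183, plus strand), in Arabidopsis the partner of MPK3 in most stress responses, did not separate by genotype. It stood at 37.1, 45.6 and 40.4 CPM in wild type, at 37.9, 38.5 and 40.2 in hdac19-2b and at 56.6, 36.1 and 24.0 in gf14h-1. The mutant groups overlapped wild type, and gf14h-1 replicates 1 and 3 held the highest and lowest of all 9 values. Log2 fold changes against wild type were −0.077 in hdac19-2b (95% interval −0.68 to 0.53) and −0.058 in gf14h-1 (interval −0.66 to 0.55).

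MPK11 (chromosome 3, 14764260 to 14766870, minus strand), of the MPK4 branch in Arabidopsis, was the least counted member, with 20 to 296 counts per library. The 20 counts of gf14h-1 replicate 3 have an exact Poisson 95% interval of 12.2 to 30.9. It stood at 7.64, 8.29 and 8.29 CPM in wild type. The gf14h-1 libraries gave 12.0, 9.57 and 7.06 CPM and the hdac19-2b libraries 8.49, 7.60 and 5.96 CPM. Groups overlapped throughout, gf14h-1 with the others only through replicate 3. Log2 fold changes against wild type were 0.26 in gf14h-1 (SE 0.31) and −0.14 in hdac19-2b (SE 0.30). The gf14h-1 value was 0.42 without gf14h-1 replicate 3 and 0.060 without gf14h-1 replicate 1.

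MPK7-1 (chromosome 1, 29719074 to 29720951, plus strand) belongs by name to the Arabidopsis group that MKK3 activates. Wild type libraries stood at 28.8, 26.6 and 23.0 CPM, gf14h-1 libraries at 18.4, 20.9 and 13.1, and hdac19-2b libraries at 19.1, 19.0 and 21.1. Both mutants lay below wild type without overlap. The log2 fold change was −0.56 in gf14h-1 (SE 0.23; unadjusted p 0.035, adjusted p 0.607) and −0.40 in hdac19-2b (SE 0.23; adjusted p 0.887), by edgeR QL.

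The MPK7-1 values depend on how reads were divided with another locus. Its estimated counts were fractional in 7 of 9 libraries, and adding those of LOC100833110, a protein-coding locus of chromosome 4 (29994533 to 30005011), gave whole numbers within 0.01 in all 9 libraries. No other feature with fractional counts did so, and reads that match both loci appear to have been split between them. MPK7-1 held 28.3%, 25.3% and 21.3% of the pair's counts in wild type. The gf14h-1 libraries gave 14.7%, 16.6% and 18.3% and the hdac19-2b libraries 22.7%, 18.8% and 18.9%. The gf14h-1 shares lay below all wild type shares, with that of gf14h-1 replicate 3 from only 201 counts of the pair. For the pair summed, which does not depend on the division, log2 fold changes were 0.043 in gf14h-1 and −0.085 in hdac19-2b (SE 0.24 each).

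MPK14 (chromosome 3, 2532419 to 2536547, minus strand), of the same Arabidopsis group, stood at 35.8, 44.4 and 49.6 CPM in wild type. It stood at 64.1, 55.7 and 42.3 CPM in gf14h-1 and at 42.0, 34.3 and 47.6 in hdac19-2b. The gf14h-1 mean was the highest, at 54.0 CPM against 43.2 ± 6.96 for wild type and 41.3 ± 6.67 for hdac19-2b (SD, n = 3). All groups overlapped, but gf14h-1 overlapped the others only through replicate 3, the shallowest library. Its log2 fold changes were 0.33 in gf14h-1 (SE 0.23) and −0.067 in hdac19-2b (SE 0.23). The gf14h-1 value was 0.47 without gf14h-1 replicate 3 and 0.19 without gf14h-1 replicate 1.

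MPK17 (chromosome 1, 30432196 to 30436417, plus strand) is named after a member of the Arabidopsis MAP kinase branch with a TDY activation loop. It was tightly grouped in wild type, at 72.7, 75.8 and 80.8 CPM, and in hdac19-2b, at 62.3, 62.2 and 59.2 CPM, and these groups did not overlap. In gf14h-1 it spread over 109.5, 93.5 and 40.6 CPM, covering both. For gf14h-1 against wild type the log2 fold change was 0.10 (SE 0.30). That value was 0.41 without gf14h-1 replicate 3 and −0.17 without gf14h-1 replicate 1. The log2 fold change in hdac19-2b was −0.32 (SE 0.30), at an edgeR QL adjusted p of 1.00 over all 9 libraries. With only the 6 libraries of wild type and hdac19-2b the adjusted p was 0.440, and without gf14h-1 replicate 3 it was 0.486, again by edgeR QL.

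**Figure D3:**
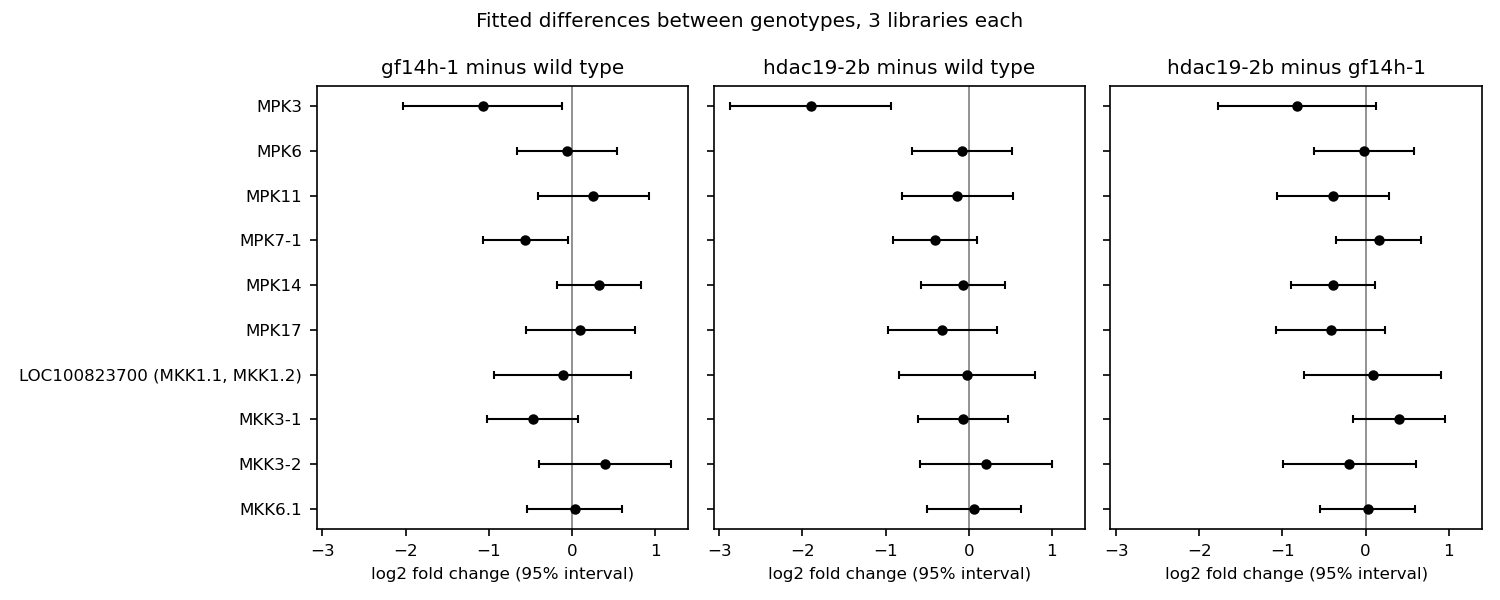
Log2 fold changes fitted by edgeR for the 10 members in 3 comparisons (horizontal axes, points), with 95% intervals as bars and a grey line at 0. MPK3 has the lowest estimate in each comparison (−1.07, −1.90 and −0.82), and the other estimates lie between −0.56 and 0.40.

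Among the MAP kinase kinases, LOC100823700 (MKK1.1 and MKK1.2; chromosome 1, 49612542 to 49615318, plus strand) carries the names of the Arabidopsis kinases ahead of MPK4. It stood at 15.5, 28.8 and 23.8 CPM in wild type. The gf14h-1 libraries gave 23.0, 29.8 and 8.82 CPM and the hdac19-2b libraries 24.0, 20.9 and 22.1 CPM. The value of 8.82 CPM rested on 25 counts. The hdac19-2b libraries lay inside the wild type range, and the log2 fold changes were −0.11 in gf14h-1 (SE 0.37) and −0.023 in hdac19-2b (SE 0.37).

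MKK3-1 (chromosome 4, 44045140 to 44050821, plus strand) and MKK3-2 (chromosome 1, 38714738 to 38727010, minus strand) are 2 loci named after MKK3. MKK3-1 stood at 18.1, 19.9 and 19.0 CPM in wild type. The gf14h-1 libraries gave 13.0, 16.7 and 10.9 CPM and the hdac19-2b libraries 15.1, 17.4 and 21.8 CPM. The gf14h-1 libraries lay below all wild type libraries, with a log2 fold change of −0.47 (SE 0.25, edgeR QL adjusted p 0.748). MKK3-2 stood at 10.6, 13.5 and 12.2 CPM in wild type. The gf14h-1 libraries gave 25.7, 11.9 and 9.53 CPM and the hdac19-2b libraries 11.8, 12.7 and 17.6 CPM. Its highest value was that of gf14h-1 replicate 1, from 479 counts against 241.8 for MKK3-1 in the same library. The log2 fold change of MKK3-2 in gf14h-1 was 0.40 (SE 0.36), and without gf14h-1 replicate 1 it was −0.16.

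These loci also shared reads. Both had fractional counts in 7 of 9 libraries, and their sum was whole within 0.01 in all 9. MKK3-2 held 37.1%, 40.6% and 39.2% of the pair's counts in wild type and 43.9%, 42.0% and 44.7% in hdac19-2b. In gf14h-1 it held 66.5%, 41.6% and 46.6%. Both mutants lay above wild type in this share without overlap, by a small margin outside gf14h-1 replicate 1. The 46.6% of gf14h-1 replicate 3 rested on 27 of 58 counts, and the 41.6% of replicate 2 on 182 of 437. The nearest wild type share, 40.6%, was 165 of 407 counts. These margins were not tested against counting error. The sum of the pair had log2 fold changes of −0.072 in gf14h-1 (SE 0.26) and 0.045 in hdac19-2b (SE 0.26).

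**Figure D4:**
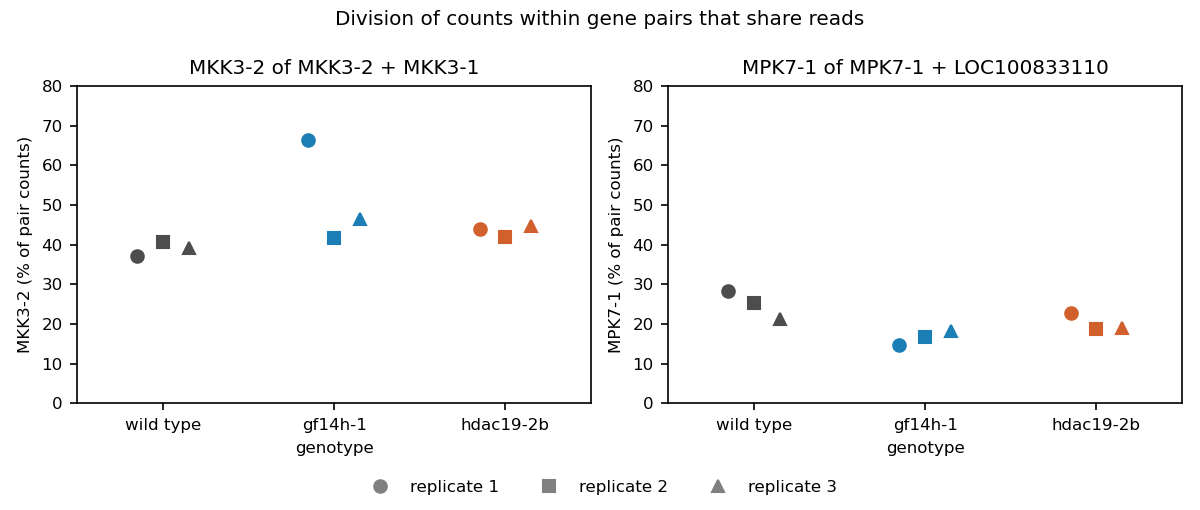
Division of counts within the pairs that share reads, as the percentage held by MKK3-2 (left) and by MPK7-1 (right) in each library, by genotype. Symbols are replicates. MKK3-2 reaches 66.5% in gf14h-1 replicate 1 and lies between 37.1% and 46.6% elsewhere, and MPK7-1 runs from 14.7% to 28.3%.

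MKK6.1 (chromosome 1, 72354569 to 72359117, plus strand), named after the kinase of cytokinesis, stood at 41.1, 37.6 and 41.0 CPM in wild type. It stood at 53.1, 42.9 and 25.4 CPM in gf14h-1 and at 38.6, 49.1 and 37.4 in hdac19-2b. Group means were within 2 CPM of each other, at 39.9 ± 2.00, 40.4 ± 14.0 and 41.7 ± 6.43 CPM in wild type, gf14h-1 and hdac19-2b (SD, n = 3). Log2 fold changes were 0.037 and 0.062 (SE 0.26 each).

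Over the whole list, edgeR QL called 0 of 10 members in gf14h-1, where it called 0.146% of 23898 tested features (0.067% higher and 0.0795% lower). It called 0 of 10 in hdac19-2b, against 0.272% of features (0.0795% higher and 0.192% lower). Between the mutants it called 0 of 10, against 0.0167% (0.0126% higher and 0.00418% lower). At an unadjusted p under 0.05 it gave 2 members in gf14h-1 (MPK3 and MPK7-1; 7.56% of features), 1 in hdac19-2b (MPK3; 7.19%) and 0 between the mutants (9.03%). These unadjusted counts moved when 1 library was left out. The gf14h-1 count was 0 without gf14h-1 replicate 1 or without wild type replicate 1, and it was 1 (MPK3) when hdac19-2b replicate 2 or wild type replicate 2 was omitted. Omitting gf14h-1 replicate 3 made it 3 (MPK3, MPK14 and MPK17, without MPK7-1), and omitting gf14h-1 replicate 2 left 2, MPK7-1 and MKK3-1. The hdac19-2b count was 2 (MPK3 and MPK7-1) without gf14h-1 replicate 3. Between the mutants the count was 2 without gf14h-1 replicate 3, from MPK14 (log2 fold change −0.54) and MPK17 (−0.73), and 1 (MPK3) when wild type replicate 1, wild type replicate 2 or hdac19-2b replicate 1 was left out. Without wild type replicate 1, 1277 of 24760 tested features were under 0.05 in gf14h-1 (edgeR QL, unadjusted). Without wild type replicate 2 the number was 1379 of 24788. For the other omissions and comparisons the share of all tested features at this unadjusted p is not given here. Without gf14h-1 replicate 3, features called at an adjusted p under 0.05 (edgeR QL) also rose, to 51 in gf14h-1 and 190 in hdac19-2b. With all libraries they were 35 and 65, so the member counts above are not a result about the members. The DESeq2 Wald test called 0, 1 and 0 members in the 3 comparisons, against 357, 566 and 282 of 23898 features. With limma-trend 0 members were called in each, against 39, 80 and 5 features. Libraries did not overlap, with the mutant lower, for MPK7-1 and MKK3-1 in gf14h-1, or 2 of 10 against 6.68% of features. In hdac19-2b this held for MPK3, MPK7-1 and MPK17, or 3 of 10 against 8.48%. Summed with the loci that share their reads, MPK7-1 and MKK3-1 no longer separated from wild type. The MPK7-1 pair stood at 101.6 to 107.7 CPM in wild type, 70.9 to 125.8 in gf14h-1 and 83.9 to 111.6 in hdac19-2b. The MKK3 pair stood at 28.7 to 33.4 CPM in wild type and 20.5 to 38.7 in gf14h-1. No member was higher without overlap in gf14h-1 (5.18% of features; 11.9% in either direction) or hdac19-2b (8.35%; 16.8%). Between the mutants none was without overlap, against 7.82% of features higher in hdac19-2b and 6.22% lower (14% in all). The median log2 fold change of the 10 members was −0.011 in gf14h-1 and −0.073 in hdac19-2b, against −0.0040 and 0.017 over all tested features. The wild type libraries are common to both of these comparisons.

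The 9 members other than MPK3 each varied most among the gf14h-1 libraries. In gf14h-1 replicate 1, 6 of the 10 members had their highest value of all 9 libraries, as did 16.0% of all tested features. In gf14h-1 replicate 3, 7 of the 10 had their lowest, as did 29.0% of all tested features. Leaving MPK3 aside, the median member stood 0.53 above its own 9-library median in gf14h-1 replicate 1 and 0.68 below it in replicate 3, on the log2 scale. The corresponding values in the other 7 libraries ran from −0.13 to 0.15. MPK3 went the other way in both libraries, with its lowest gf14h-1 value in replicate 1 and its highest in replicate 3. Coefficients of variation of the members other than MPK3 were 20.3% to 55.5% in gf14h-1, against 4.63% to 29.6% in wild type and 2.91% to 22.3% in hdac19-2b, and that of MPK3 was lower in gf14h-1 (33.5%) than in wild type (62.1%). Counts of the 10 members summed to 702 in gf14h-1 replicate 3 and to 3351 to 13616 elsewhere, so that library gives the least precise values. The part of depth in these differences was not tested.

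**Figure D5:**
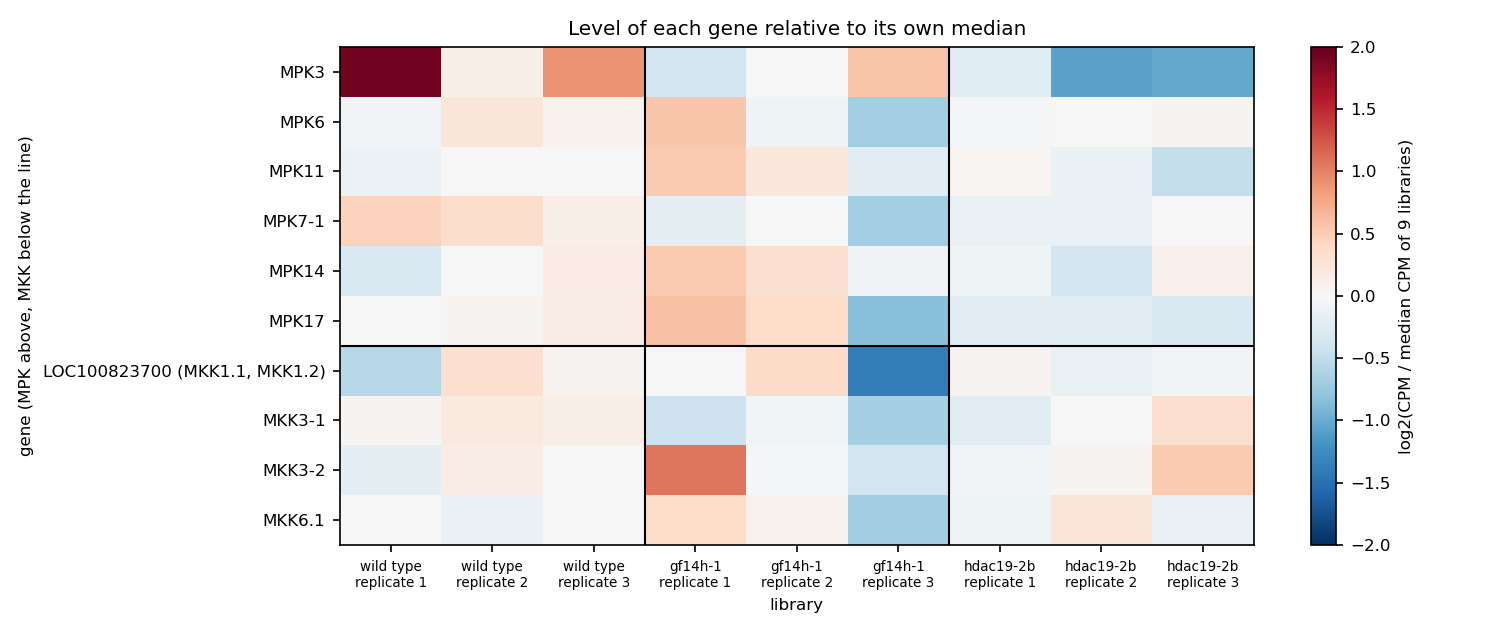
Level of each member (rows) in each library (columns) as log2 of its CPM over its own median of 9 libraries, red above and blue below, with lines between genotypes and between MPK and MKK genes. Most members other than MPK3 are above their median in gf14h-1 replicate 1 and below it in replicate 3, and MPK3 is highest in wild type replicate 1.

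The features whose profile over the 9 libraries was most like that of MPK3 were sought by Pearson correlation of log2 CPM. They were chosen for this likeness, and they share libraries and depth with MPK3, so the values are a description. Over all tested features the 5 nearest were the protein-coding loci LOC100835463, LOC100821440, LOC100843657, LOC100844883 and LOC100835559, with r from 0.972 to 0.985 (n = 9). LOC100821440 (chromosome 1, 70028591 to 70029669) ranked all 9 libraries in the same order as MPK3. Its wild type libraries stood at 117.5, 45.2 and 77.8 CPM and its hdac19-2b libraries at 27.2, 16.1 and 16.8 CPM. The sources used here give no name or description for these 5.

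Among features with a gene name or description, the nearest to MPK3 was CBF7, a C-repeat binding factor, a class of transcription factor that activates cold and dehydration response genes. Its r was 0.921 and Spearman's rho 0.933 (n = 9), and r was 0.835 without wild type replicate 1. CBF7 stood at 65.6, 12.2 and 22.9 CPM in wild type, the same order as MPK3. Second was LOC100823438 (SAPK2), of the SnRK2 kinases, which transmit osmotic stress and abscisic acid signals, with an r of 0.898. SAPK2 stood at 118.7, 81.1 and 114.9 CPM in wild type. The gf14h-1 libraries gave 62.8, 87.6 and 84.0 CPM and the hdac19-2b libraries 63.6, 58.1 and 69.3 CPM. Its log2 fold change in hdac19-2b was −0.72 (SE 0.22, edgeR QL adjusted p 0.305), without overlap with wild type. Next was CBF5, with an r of 0.826 that was 0.614 without wild type replicate 1. CBF5 stood at 5.79, 0.739 and 1.29 CPM in wild type and had 0 counts in each of the 6 mutant libraries.

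A list of other stress kinase signalling genes that meet or run beside MAP kinase cascades held 21 named features, of which 20 were tested. It comprised SAPK kinases, CIPK kinases and the calcium sensor CBL2, protein phosphatases 2C, TRAB1 and C-repeat binding factors. In hdac19-2b, 1 was called higher, LOC100828546 (CIPK14), a kinase that acts with calcium sensors, and 1 lower, CBF7, out of 20. Over all tested features 0.0795% were called higher and 0.192% lower. The log2 fold change of CIPK14 had a 95% interval of 0.75 to 1.65 (edgeR QL adjusted p 0.0425), and that of CBF7 was −4.03 (SE 0.63, edgeR QL adjusted p 0.0261). In gf14h-1, edgeR QL called 0 of 20 (0.146% of all tested features), with 4 at an unadjusted p under 0.05 (7.56%). The same genes differed from wild type in the same direction there, also without overlap, with log2 fold changes of 1.15 for CIPK14 (edgeR QL adjusted p 0.0762) and −2.97 for CBF7 (edgeR QL adjusted p 0.129). Between the mutants neither passed, with log2 fold changes of 0.051 for CIPK14 and −1.05 for CBF7. Estimates were below 0 for 16 of 20 features in hdac19-2b and for 10 of 20 in gf14h-1. The share of all tested features below 0 is not given here, and their median follows. At an unadjusted p under 0.05 (edgeR QL), 4 of the 16 were lower and 1 feature of the list was higher in hdac19-2b. Over all tested features 7.19% passed this in either direction. Of the 16, 1 was called. The median log2 fold change of the list was −0.17 in hdac19-2b and −0.0032 in gf14h-1. Over all tested features it was 0.017 and −0.0040.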

How the data were processed

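Members and gene lists were chosen with earlier results of these data known. One deposited table gives estimated counts for RefSeq features. The other gives normalized signal with annotation, and its deposited values were whole reads times 1 factor per library for 99.9% to 100.0% of values (within 0.1). Tools listed by the submitters' processing notes are HISAT2, Partek, DESeq2 and FastQC 0.11.9. Which program counted reads, and whether by strand, is not given in the sources used here. No member overlaps another RefSeq gene. Estimated counts were rounded to whole numbers. edgeR 4.0.16 in R 4.3.3 fitted genotype to all 9 libraries after TMM scaling and the default filter (23898 features), with Benjamini-Hochberg adjustment over all of them and a threshold of 0.05. SE is the absolute log2 fold change over the square root of F, and 95% intervals use the fit's degrees of freedom. Levels are TMM-scaled CPM. Every member is named, and likeness to MPK3 was ranked as fixed in the design (5 of all features, 3 of named ones). Of the nearest named features of the other members, 1 is not reported here. Alternatives used DESeq2 1.42.0, limma 3.58.1, other scaling, filters and inputs, a replicate block and the omission of each library. A floor of 3 counts is 0.0819 to 0.908 CPM, and every member exceeded it in every library. Coordinates are 1-based on assembly Brachypodium_distachyon_v3.0, whose gene starts match those deposited for all 10 members.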

Additional observations from a re-analysis of the deposited data

How the results depend on the processing

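Of 537 member fold changes under alternatives, 502 kept their direction and side of the threshold, 34 changed sign and 1 gained the threshold (MPK3 in hdac19-2b, DESeq2). All with a changed sign had an adjusted p of at least 0.598, and none but that DESeq2 value had an adjusted p under 0.05. With DESeq2, called features were 357 in gf14h-1, 566 in hdac19-2b and 282 between mutants (35, 65 and 4 as reported), and called members in hdac19-2b 1. With only the 6 libraries compared, called features were 4, 235 and 1, and with counts summed per gene 138 in hdac19-2b. Same-numbered libraries deviated from their group means with correlations of −0.136 to 0.020, and differently numbered ones with −0.140 to 0.209. No pairing by number was seen, though deviations from means of 3 libraries cannot exclude it. The fit with the replicate block gave 4, 12 and 2 called features. It turned log2 fold changes of MKK6.1 in gf14h-1 to −0.016, LOC100823700 in hdac19-2b to 0.0058 and MPK6 between mutants to 0.035. With limma-trend those 3 were −0.044, 0.020 and 0.086, and MPK17 in gf14h-1 was −0.033. With features that share reads summed, an alternative chosen after seeing the data, MPK7-1 with its partner was 0.043 in gf14h-1 and −0.13 between mutants, and MKK3-1 with MKK3-2 was 0.045 in hdac19-2b. The cause was not tested.

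Leaving out each replicate in turn, called features ran from 4 to 51 in gf14h-1, 2 to 190 in hdac19-2b and 2 to 7 between mutants, with 0 members each time. The gf14h-1 count was lower by more than 1.5 times without any 1 library other than gf14h-1 replicate 3. The hdac19-2b count was so when an hdac19-2b library, or wild type replicate 1 or replicate 3, was left out, and was higher by more than 1.5 times without gf14h-1 replicate 1 (108) or 3 (190). In gf14h-1, log2 fold changes ran from −0.46 to 0.21 for LOC100823700, −0.16 to 0.64 for MKK3-2, −0.21 to 0.27 for MKK6.1, −0.17 to 0.41 for MPK17 and −0.43 to 0.18 for MPK6. In hdac19-2b they ran from −0.24 to 0.18 for LOC100823700, −0.23 to 0.047 for MKK3-1, −0.072 to 0.13 for MKK6.1, −0.20 to 0.049 for MPK14 and −0.15 to 0.0026 for MPK6. Between mutants they ran from −0.24 to 0.43 for LOC100823700, −0.44 to 0.37 for MKK3-2, −0.21 to 0.27 for MKK6.1 and −0.26 to 0.35 for MPK6.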

Other observations

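For 5 of the members other than MPK3, the named feature nearest in profile is given here, by Pearson correlation of log2 CPM over 9 libraries. MPK6 had PDS, the phytoene desaturase gene of carotenoid synthesis, with an r of 0.928. MKK6.1 had LOC100830593 (SAPK10), an SnRK2 kinase, with an r of 0.902. MPK17 had rps18 (r 0.879) and MPK7-1 had rpl14 (r 0.806), both ribosomal protein genes of the chloroplast genome. MKK3-2 had MPK6 (r 0.814). These features were picked for their likeness, so the values describe these libraries only.

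LOC100833110, which shares reads with MPK7-1, stood at 72.8, 78.5 and 84.7 CPM in the wild type libraries. Its gf14h-1 libraries stood at 107.3, 104.9 and 57.9 CPM and its hdac19-2b libraries at 64.9, 81.9 and 90.5 CPM, so that gf14h-1 replicate 3 was the lowest of all.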
